A study of Mus musculus with 6 samples.

Results

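The genes described here encode the proteins of the mitochondrial ribosome that carry the symbols Mrpl (large subunit) or Mrps (small subunit) followed by a number. They were chosen by symbol among the probe sets that the array's annotation pairs with exactly 1 gene, leaving out symbols that mark a pseudogene. Whether a probe set also reads a pseudogene copy was not tested. A gene with several such probe sets was represented by the one with the highest mean over all arrays. This gave 77 genes of the 19937 genes with a single-gene probe set, 50 of the large subunit, 26 of the small subunit and Mrps36. Mrps18a and Mrps30 were counted with the large subunit, where their proteins sit. The rule used symbols and brightness over all arrays, and earlier results of these data were known when it was chosen. Of the 51 large subunit genes listed, Mrpl53 was not analysed here.

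The cells were neural stem cells and progenitors of adult mice of the 129SV strain, aged 8 weeks, with 3 arrays per group. Control mice were Sirt1lox/lox, with both Sirt1 alleles flanked by lox sites and no Cre. The other mice were NestinCre;Sirt1lox/lox, in which Cre recombinase under the Nestin promoter acts in neural stem and progenitor cells, and their cells are labelled as lacking active SIRT1 (called Sirt1 inactive below). Cells of both groups grew as neurospheres with EGF and bFGF in neurobasal medium with B27, were plated on poly-D-lysine after their first passage and were collected while proliferating, early in passage 2. Because the controls carried no Cre, the presence of Cre and the loss of SIRT1 cannot be told apart. The titles call the samples biological replicates, and the number of mice per sample is not stated in those labels. SIRT1 is a deacetylase that needs NAD, and the comparison asks which transcripts differ without its activity.

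Mitochondria hold their own ribosome, which translates the few proteins encoded by mitochondrial DNA, all of them subunits of the respiratory chain or the ATP synthase. All its proteins are made in the cytosol from nuclear genes and imported, so the mitochondrial ribosome joins RNA from one genome with proteins from another. Some of these proteins have a counterpart in the bacterial ribosome, and others are particular to mitochondria. In the adult brain, neural stem cells are known to raise mitochondrial mass and respiration as they turn into neurons.

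Each value is a log2 expression value of 1 probe set on 1 array, and each difference is the mean of the Sirt1 inactive arrays minus the mean of the control arrays, tested with limma over 22961 probe sets. Sirt1 read 8.73, 8.78 and 8.55 in control replicates 1 to 3 and 8.26, 8.33 and 8.25 in Sirt1 inactive replicates 1 to 3. The groups did not overlap, and the difference was -0.41 (SE 0.08, limma adjusted p = 0.959, exact two-sided permutation p = 0.1, the smallest that 3 against 3 arrays allow). The labels do not say which part of the gene the lox sites flank, so whether this probe set reads the deleted part is unknown. Of 12 markers of neural stem and progenitor cells, 11 were measured, with means over the 6 arrays from 7.34 for Prom1 to 13.33 for Fabp7 and Vim. Array medians were 7.36 to 7.39, so Prom1 was near them, and Pax6 (9.02) and Hes5 (9.25) lay between; levels of different probe sets give no order of expression. Control replicate 3 was the array least like the rest: its probe sets lay a median of 0.125 from the mean of the other arrays, beside 0.07 to 0.1 for the other 5.

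None of the mitochondrial ribosomal protein genes passed the test between the genotypes. With limma, 0 of 77 had an adjusted p under 0.05, beside 0 of 22961 probe sets tested (0.00%), and the members' adjusted p lay between 0.959 and 1.0. At an unadjusted p under 0.05, 2 members were higher in Sirt1 inactive cells and 0 lower, beside 0.984% of all tested probe sets higher and 2.63% lower (3.61% in either direction). Among tested probe sets at or above the median brightness, 1.21% were higher and 1.60% lower at that p. Differences of the members were small, from -0.14 to 0.29 (0.906 to 1.22 times control), with standard errors of 0.05 to 0.22. A difference of under 0.1 in either direction was seen for 57 of 77 members (74.0%), beside 70.3% of all tested probe sets.

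The direction of these small differences leaned towards Sirt1 inactive cells. In all, 60 of 77 members (77.9%) lay above 0 and 17 below, beside 39.9% of all tested probe sets above and 60.1% below 0. The members' median difference was 0.046, with quartiles of 0.00 and 0.08, and the median over all tested probe sets was -0.022. Brightness moves with this background: 75 of the 77 members were at or above the median brightness of 7.90, and among the tested probe sets that were, 48.6% lay above 0 with a median of -0.003. These shares describe genes of the same 6 arrays and were not tested. In RNA of whole cultures, a higher share of one cell type and more RNA per cell cannot be told apart.

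**Figure D1:**
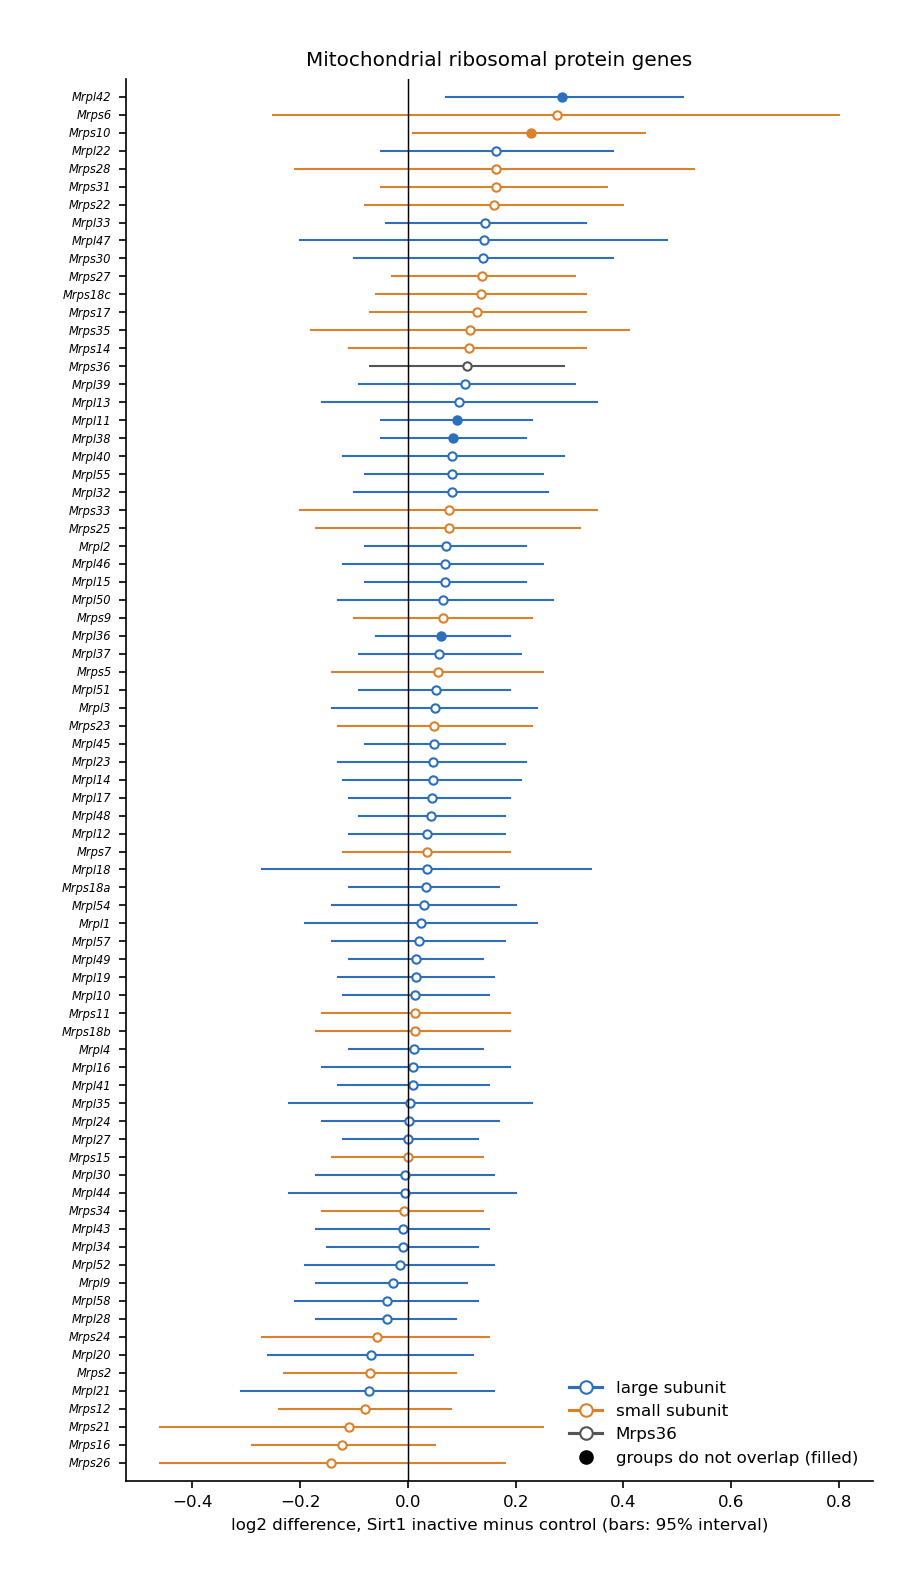
Log2 difference, Sirt1 inactive minus control (horizontal axis), of each of the 77 mitochondrial ribosomal protein genes, ordered by difference and coloured by subunit; points are differences, bars limma's 95% intervals with 3 arrays per group, and filled points genes whose groups do not overlap. Most points lie slightly above 0, between -0.14 and 0.29, and the intervals of Mrpl42 (0.07 to 0.51) and Mrps10 (0.01 to 0.44) lie above 0.

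The share above 0 was seen in each pair of arrays with the same replicate number. Sirt1 inactive minus control was above 0 for 53 members in pair 1 (68.8%, beside 45.7% of all tested probe sets), for 59 in pair 2 (76.6%, beside 47.6%) and for 47 in pair 3 (61.0%, beside 37.4%). Among the brighter probe sets, 42.5%, 52.1% and 49.0% were above 0 in these pairs. The members' median difference in these pairs was 0.028, 0.052 and 0.029. Higher in 3 of 3 pairs were 28 members (36.4%), beside 10.9% of all tested probe sets and 15.2% of the brighter ones, while 4 members were lower in 3 of 3 pairs (5.19%, beside 20.7% of all and 18.2% of the brighter ones). With the replicate number as a block in limma, 0 members were called (0.00% of all probe sets) and 3 were higher at an unadjusted p under 0.05 (Mrpl42, Mrps31 and Mrps22), beside 7.58% of all tested probe sets in either direction and 2.50% higher. With the block and both arrays of number 3 left out, an alternative chosen after seeing the data, 0 members were called beside 0.0827% of all.

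Array by array, the members shifted by little. The median deviation of the 77 members from their own mean over the 6 arrays was -0.021, -0.017 and -0.004 in control replicates 1 to 3 and -0.008, 0.033 and 0.025 in Sirt1 inactive replicates 1 to 3. Sirt1 inactive replicates 2 and 3 were thus the high arrays, and replicate 1 lay among the controls. Sirt1 inactive replicate 2 held the highest value of 29 members (37.7%, beside 17.7% of all tested probe sets and 24.8% of the brighter ones). For control replicate 2 it was 0 members, beside 8.06% of all tested probe sets and 7.11% of the brighter ones. Without Sirt1 inactive replicate 2, the members' median difference was 0.030 with 54 of 77 above 0, and without control replicate 2 it was 0.029 with 53 above 0.

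**Figure D2:**
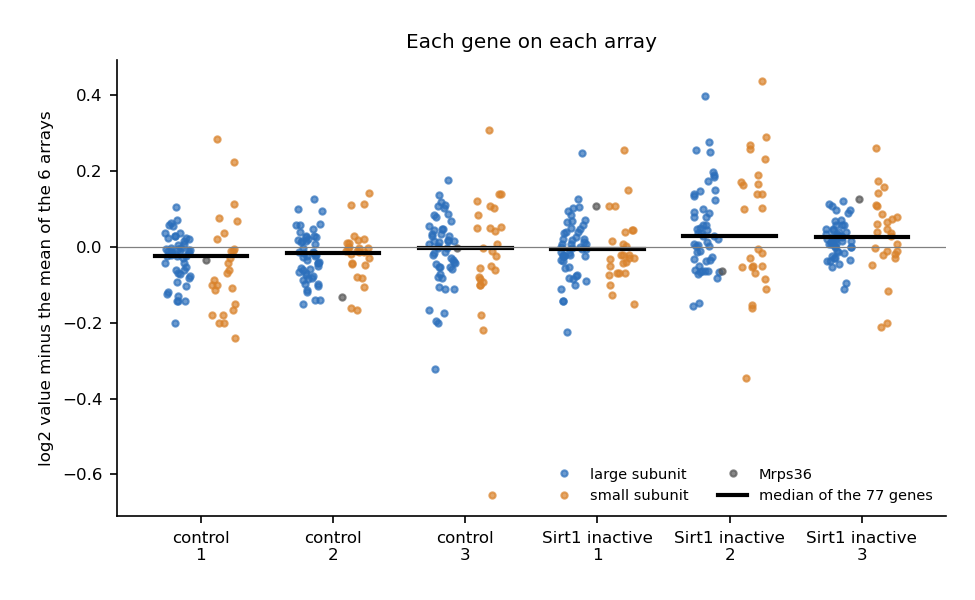
Log2 value of each mitochondrial ribosomal protein gene minus its own mean over the 6 arrays, by array, with 1 point per gene coloured by subunit and a bar at the median of the 77 genes. The medians run from -0.021 in control replicate 1 to 0.033 in Sirt1 inactive replicate 2, and the lowest point of control replicate 3 is Mrps6.

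The same arrays were read for markers of other cell types. None of 9 markers of neuroblasts and neurons lay above 0 (median -0.307), and their mean level was 8.46 to 8.71 in control and 8.12 to 8.40 in Sirt1 inactive arrays. Markers of astrocytes, 6 of 8 of them above 0, had a mean level of 9.97, 10.04 and 9.34 in control replicates 1 to 3, and of 10.02 and 10.09 in Sirt1 inactive replicates 1 and 2 with replicate 3 just below them. Oligodendrocyte progenitor markers had a mean level of 9.41 to 9.53 against 9.68 to 9.89, with 4 of 7 above 0 and 3 below. All of those above 0 had groups without overlap (57.1% of the list, beside 2.62% of all tested probe sets higher). They also had an unadjusted limma p under 0.05 (57.1%, beside 0.984% higher). Within this list the differences ran from -0.15 to 0.79. Of the markers of myelinating oligodendrocytes, 0 of 7 lay above 0 (median -0.097, mean level 8.73 to 8.95 in control and 8.64 to 8.84 in Sirt1 inactive arrays). Microglia and macrophage markers had 7 of 9 below 0 (7.02 to 7.09 against 6.98 to 7.0). Groups did not overlap for 4 of these 9 (44.4%, all lower), beside 6.71% of all tested probe sets lower. Endothelial markers had 5 of 6 below 0 (6.70 to 6.84 against 6.60 to 6.75) and ependymal markers 5 of 6 (6.78 to 6.97 against 6.79 to 6.81). Of all tested probe sets, 60.1% lay below 0. Most markers of these lists were dim, with 2 of 9, 0 of 6 and 1 of 6 at or above the median brightness. Mural cell and fibroblast markers read 7.56 in control replicate 3 and 8.18 to 8.42 on the other arrays. Proliferation markers read 11.31 to 11.40 and 11.35 to 11.43, with 5 of 7 above 0 and a median of 0.020. RMA gives every probe set a value, so no marker is at 0, and the part of these cell types in the members' differences was not tested. By median deviation, control replicate 3 had the lowest astrocyte markers (-0.289) and the highest neuron markers (0.369). On that array 5 of 8 astrocyte markers had their lowest value and 1 its highest. Of the 9 neuron markers, 8 had their highest value there and 1 its lowest. The members' median deviation on that array was -0.004, and no link between these values was tested. Without control replicate 3, the members' median was 0.049 and 64 of 77 were above 0.

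The large subunit forms peptide bonds and holds the tunnel through which the new protein leaves. Its 50 genes had a median difference of 0.040, with 40 above 0 (80.0%), and 44 of 50 differed by under 0.1. Genes with a bacterial counterpart (31, 25 of them above 0, median 0.035) and those particular to mitochondria (19, 15 above 0, median 0.048) had like values. Without control replicate 2, the median of the large subunit was 0.023.

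Mrpl42, a large subunit protein particular to mitochondria, had the largest difference of all members. It read 8.71, 8.69 and 8.43 in control replicates 1 to 3 and 9.0, 8.84 and 8.84 in Sirt1 inactive replicates 1 to 3. Every Sirt1 inactive array was above every control array, and control replicate 3 was the lowest. The means were 8.61 ± 0.15 and 8.90 ± 0.09 (SD, n = 3 each), a difference of 0.29 (SE 0.09, 95% interval 0.07 to 0.51, 1.22 times control), with a limma unadjusted p = 0.018 and adjusted p = 0.959. Without control replicate 3 the difference was 0.20.

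Groups did not overlap for 5 members (6.49%), all higher in Sirt1 inactive cells, beside 2.62% of all tested probe sets higher and 6.71% lower. Among the brighter probe sets, the shares were 3.64% higher and 4.59% lower. These 5 members were not tested as a set. The members without overlap were Mrpl42, Mrpl11, Mrpl38 and Mrpl36 of the large subunit and Mrps10 of the small one. Mrpl11, which sits at the base of the stalk that receives translation factors, read 9.54, 9.66 and 9.59 in control and 9.70, 9.70 and 9.67 in Sirt1 inactive cells. Its arrays of both groups lay close together, and the difference was 0.09 (SE 0.06, limma unadjusted p = 0.16). The other stalk proteins were Mrpl10, with a difference of 0.01, and Mrpl12, which carries the stalk's mobile ends, with 0.04.

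Mrpl38, a protein of the central protuberance that faces the small subunit, read 9.88, 9.83 and 9.83 in control and 9.99, 9.89 and 9.91 in Sirt1 inactive cells. The gap between the groups was narrow, at a difference of 0.08 (SE 0.06). The 6 measured genes of the central protuberance were all above 0, with a median of 0.056 and no difference over 0.08. Mrpl36, a small zinc-binding protein, read 10.58, 10.54 and 10.53 in control and 10.62, 10.61 and 10.61 in Sirt1 inactive cells. Its difference was 0.06 (SE 0.05), and it differed so little within groups (SD 0.02 and 0.01) that the groups stayed apart.

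Around the rim of the exit tunnel, 6 of 7 genes lay above 0, with a median of 0.048. Mrpl22, which lines the tunnel, read 8.34, 8.39 and 8.65 in control and 8.59, 8.68 and 8.60 in Sirt1 inactive cells. Control replicate 3 lay among the Sirt1 inactive arrays, and the difference was 0.16 (SE 0.09, limma unadjusted p = 0.11). Mrpl45, which anchors the ribosome to the inner membrane, had a difference of 0.05 (SE 0.06). Mrpl33, a small protein near the exit site for transfer RNA, had a difference of 0.14 (SE 0.08) and was higher in 3 of 3 pairs.

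On the other side of 0, the large subunit members with the smallest p were Mrpl20 (-0.07, SE 0.08), Mrpl21 (-0.07, SE 0.10), Mrpl28 (-0.04, SE 0.06) and Mrpl58 (-0.04, SE 0.07). Mrpl58 is a peptidyl-tRNA hydrolase that also frees stalled ribosomes. Mrpl20 and Mrpl21 were lower in 3 of 3 pairs. Their mean differences were smaller than their standard errors, which come from the fit that leaves out the pairing. Groups overlapped for each of these 4 genes.

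The small subunit binds messenger RNA and reads its codons. Its 26 genes had a median difference of 0.060, with 19 above 0 (73.1%), and they were spread more widely than those of the large subunit: 13 of 26 differed by under 0.1, and the median SD over the 6 arrays was 0.114 against 0.070. The 17 genes with a bacterial counterpart had a median of 0.036 with 12 above 0. For the 9 genes particular to mitochondria the median was 0.076 with 7 above 0, and 6 of 9 were higher in 3 of 3 pairs. The small subunit's median turned on single arrays, at 0.020 without control replicate 1, 0.028 without Sirt1 inactive replicate 2 and 0.098 without Sirt1 inactive replicate 1. Control replicate 1 held the lowest value of 12 of the 26 genes (46.2%), beside 17.4% of all tested probe sets and 20.5% of the brighter ones.

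Mrps10, a protein of the small subunit's head, read 9.58, 9.64 and 9.45 in control and 9.64, 9.77 and 9.93 in Sirt1 inactive cells. Control replicate 2 and Sirt1 inactive replicate 1 were equal to 2 decimals, with no overlap beyond them, and Sirt1 inactive replicate 3 was the highest. The means were 9.56 ± 0.10 and 9.78 ± 0.14 (SD, n = 3 each), a difference of 0.23 (SE 0.09, 95% interval 0.01 to 0.44, 1.17 times control), with a limma unadjusted p = 0.042 and adjusted p = 0.959. Without Sirt1 inactive replicate 3 it was 0.15.

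Among the proteins particular to mitochondria, Mrps22, in which inherited mutations cause mitochondrial disease, read 9.56, 9.77 and 9.71 in control and 9.69, 10.03 and 9.80 in Sirt1 inactive cells. Replicate 2 was the high array in both groups, the groups overlapped, and the difference was 0.16 (SE 0.10). Mrps31 had a difference of 0.16 (SE 0.09) and Mrps27, a pentatricopeptide repeat protein, of 0.14 (SE 0.07), and both were higher in 3 of 3 pairs. Of the bacterial type, Mrps17 (0.13, SE 0.08) and Mrps18c (0.13, SE 0.08) were also higher in 3 of 3 pairs, with overlapping groups.

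Mrps16, a protein of the small subunit's body in which mutations cause mitochondrial disease, read 9.66, 9.58 and 9.69 in control and 9.51, 9.43 and 9.63 in Sirt1 inactive cells. It was lower in 3 of 3 pairs, Sirt1 inactive replicate 3 lay within the control range, and the difference was -0.12 (SE 0.07, limma unadjusted p = 0.13). Mrps12, which takes part in accurate decoding, had a difference of -0.08 (SE 0.07), Mrps2 of -0.07 (SE 0.07) and Mrps24 of -0.06 (SE 0.09). Mrps26 read 8.92, 8.69 and 9.16 in control and 8.96, 8.74 and 8.64 in Sirt1 inactive cells. Its difference of -0.14 (SE 0.14) came from the arrays numbered 3, and the other 2 pairs were slightly above 0. The 49 members not named by the rule of selection had differences from -0.03 to 0.14, with 41 above 0.

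**Figure D3:**
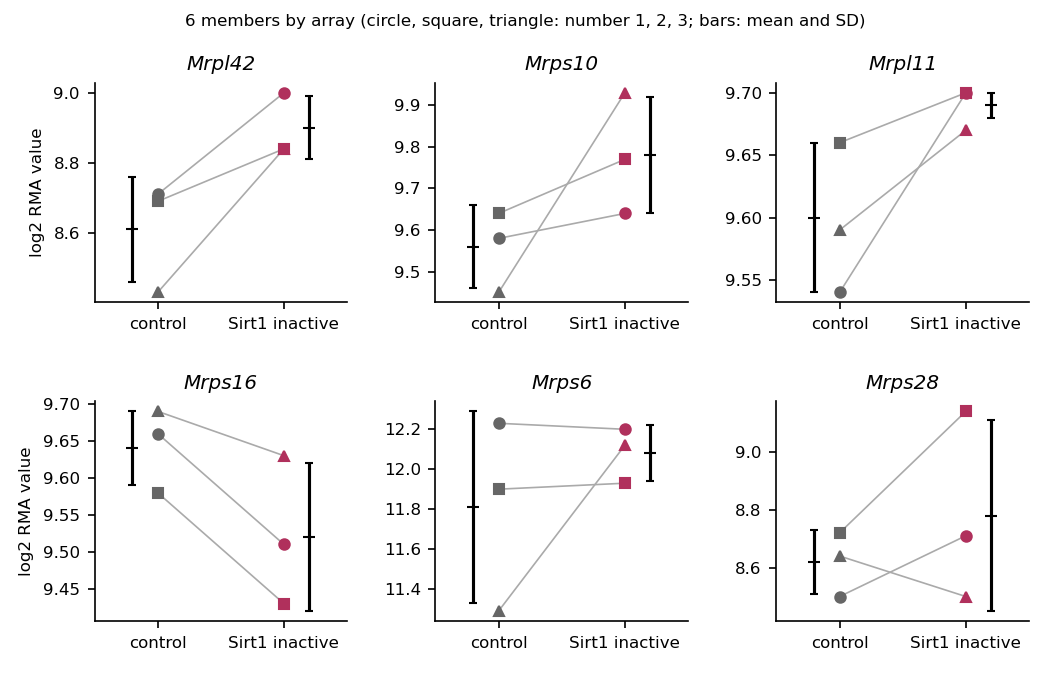
Log2 RMA values of Mrpl42, Mrps10, Mrpl11, Mrps16, Mrps6 and Mrps28 on each array, with marker shapes for replicate numbers 1 to 3, lines joining arrays of the same number and bars for the mean and SD of 3 arrays; each panel has its own vertical scale, which does not start at 0. Mrpl42, Mrps10 and Mrpl11 are higher in each pair, Mrps16 is lower in each pair, and Mrps6 and Mrps28 follow single arrays.

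Variation between arrays was largest for Mrps6, Mrps28, Mrps21 and Mrpl47, with an SD over the 6 arrays of 0.35, 0.24, 0.22 and 0.21 against a median of 0.082 over the members. Mrps6 read 12.23, 11.90 and 11.29 in control and 12.20, 11.93 and 12.12 in Sirt1 inactive cells. Control replicate 3 was the low array, and the other 5 lay between 11.90 and 12.23, so the difference of 0.28 (SE 0.22) was 0.016 without it. The gene overlaps Slc5a3, which encodes a myo-inositol transporter, and Slc5a3 read 10.68, 10.39 and 8.84 in control and 10.61, 10.55 and 10.51 in Sirt1 inactive cells. Both had their lowest value in control replicate 3, and whether the probe sets share transcripts was not tested. By the bounds of the gene models, 19 members overlap another protein-coding gene.

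Mrps28 read 8.50, 8.72 and 8.64 in control and 8.71, 9.14 and 8.50 in Sirt1 inactive cells, and Mrpl47 read 7.93, 8.05 and 7.79 in control and 7.91, 8.39 and 7.88 in Sirt1 inactive cells. In both genes Sirt1 inactive replicate 2 stood above the rest. Their differences of 0.16 (SE 0.16) and 0.14 (SE 0.15) became -0.014 and -0.024 without that array. Mrps21 read 12.12 in control replicate 1, 11.73 in replicate 2 and a value between them in replicate 3, and 11.94, 11.55 and 12.04 in Sirt1 inactive cells, with replicate 2 the low array in both groups and a difference of -0.11 (SE 0.15).

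Of the members, 8 had several single-gene probe sets, which gave opposite signs for 4 of them. The brighter probe set, used here, gave 0.05 for Mrpl23, 0.14 for Mrpl47, 0.05 for Mrpl51 and 0.08 for Mrps33, and the other one gave -0.11, -0.13, -0.002 and -0.16. The groups overlapped for each of them. Which of the probe sets reads the gene's main transcript was not tested. Mrps36, whose protein is now placed in the alpha-ketoglutarate dehydrogenase complex instead of the ribosome, had a difference of 0.11 (SE 0.08) by the brighter probe set and 0.34 (SE 0.19) by the other.

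The promoters of the members were read for motifs that nuclear regulators of mitochondrial genes are known to bind. RefSeq windows of 250 bases before the transcription start (build GRCm38.p6) were found for 68 of 77 members, 74 windows in all, and both strands were searched. The NRF1 motif, GCGCA and GCGC with any 1 base between them, stood in 10 of 74 windows (13.5%), beside 3.74% of 32851 windows of all genes and 5.18% of those of coding genes. The ETS motif CCGGAAG, which GABP binds, stood in 17 (23.0%), beside 6.91% and 8.98%. The CCAAT box, written CCAAT, stood in 27 (36.5%), beside 33.8% and 35.4%, the YY1 motif AAGATGGC in 4 (5.41%), beside 1.56% and 1.5%, and TATAAA in 5 (6.76%), beside 12.4% and 11.6%. Windows of the same gene can overlap and were counted apart. By gene, of 68 members, 10 held NRF1, 17 ETS, 24 CCAAT, 4 YY1 and 5 TATAAA. No matches of different motifs overlapped in the members' windows. Members with the motif had a median difference of 0.029 for NRF1, 0.035 for ETS and 0.068 for CCAAT, and members without it 0.048, 0.048 and 0.023.

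The windows of the 2 members with the smallest p are shown first, followed by members chosen for holding the NRF1 or ETS motif, to show how the matches lie before the start. Capitals mark matches of NRF1, ETS or CCAAT on either strand, and each window runs 5′ to 3′ in the direction of the gene and ends at the base before its start. Mrpl42 (chr10:95501950-95502199, minus strand) and Mrps10 (chr17:47368947-47369196, plus strand) each held 1 CCAAT box, read on the other strand, and no NRF1 or ETS match.
Mrpl42: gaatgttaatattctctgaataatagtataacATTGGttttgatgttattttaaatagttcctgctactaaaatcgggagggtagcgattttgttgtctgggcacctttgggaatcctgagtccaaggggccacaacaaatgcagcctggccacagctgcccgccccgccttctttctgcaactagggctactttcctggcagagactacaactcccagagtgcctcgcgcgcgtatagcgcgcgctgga
Mrps10: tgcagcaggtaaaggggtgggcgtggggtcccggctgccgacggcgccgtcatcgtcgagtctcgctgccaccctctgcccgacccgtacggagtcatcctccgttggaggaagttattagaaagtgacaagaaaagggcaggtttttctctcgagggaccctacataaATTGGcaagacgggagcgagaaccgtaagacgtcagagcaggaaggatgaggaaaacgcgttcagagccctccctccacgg
Mrpl17 (chr7:105811088-105811337, minus strand) held both an ETS and an NRF1 match, Mrpl45 (chr11:97315466-97315715, plus strand) 2 NRF1 matches and Mrpl43 (chr19:45006443-45006692, minus strand) 2 ETS matches.
Mrpl17: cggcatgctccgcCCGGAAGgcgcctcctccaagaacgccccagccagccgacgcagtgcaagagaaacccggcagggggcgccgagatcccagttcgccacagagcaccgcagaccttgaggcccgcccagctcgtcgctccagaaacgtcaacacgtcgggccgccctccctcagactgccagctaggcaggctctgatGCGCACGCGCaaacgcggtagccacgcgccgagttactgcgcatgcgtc
Mrpl45: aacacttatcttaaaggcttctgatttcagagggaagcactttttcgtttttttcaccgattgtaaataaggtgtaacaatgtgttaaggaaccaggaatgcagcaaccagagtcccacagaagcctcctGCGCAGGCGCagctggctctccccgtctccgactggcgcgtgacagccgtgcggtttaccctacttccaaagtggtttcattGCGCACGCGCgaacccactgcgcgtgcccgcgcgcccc
Mrpl43: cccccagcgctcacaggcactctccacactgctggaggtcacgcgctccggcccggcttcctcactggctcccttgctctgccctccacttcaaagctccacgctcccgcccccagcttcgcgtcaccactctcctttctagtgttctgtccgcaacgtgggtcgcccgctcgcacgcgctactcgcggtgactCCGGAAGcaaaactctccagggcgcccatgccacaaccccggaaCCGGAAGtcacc
The differences of these last 3 genes were 0.04 (SE 0.06), 0.05 (SE 0.06) and -0.01 (SE 0.07). Mrpl42 and Mrps10 were chosen by their p, so these values make no comparison between promoters. A match is a string of letters, not a measured binding site.

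The regulators themselves differed little. Nrf1, whose protein activates many nuclear genes for mitochondrial proteins, read 8.98, 9.03 and 9.27 in control and 9.01, 9.17 and 9.16 in Sirt1 inactive cells, a difference of 0.02 (SE 0.09). Gabpa differed by -0.03 (SE 0.07), Yy1 by -0.02 (SE 0.06) and Ppargc1a, the coactivator that SIRT1 is known to deacetylate, by 0.12 (SE 0.15). Over the 12 listed regulators, 0 passed the test with 7 above 0 and a median of 0.022. The regulators with the smallest p were Gabpb2 (0.12), Pprc1 (0.10), Myc (-0.11) and Sp1 (-0.07), all with overlapping groups.

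Other genes of mitochondrial protein synthesis were read from lists. With limma, 0 genes of these lists passed the test in either direction. Of 4 measured proteins of the mitochondrial ribosome with other symbols, 3 lay above 0: Chchd1 (0.23, SE 0.10), Ptcd3 (0.21, SE 0.09) and Dap3 (0.01, SE 0.05), with Gadd45gip1 at -0.00 (SE 0.07). Ptcd3 read 9.73, 9.81 and 9.50 in control and 9.87, 9.98 and 9.83 in Sirt1 inactive cells, with no overlap. The 24 assembly factors, which process ribosomal RNA and join the subunits, had 15 above 0 and a median of 0.026. Among them Rbfa (0.12), Malsu1 (0.12) and Mpv17l2 (0.14) did not overlap between groups, and Mettl15 (0.14) did.

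The list of translation factors also holds genes that act outside the start, extension and end of mitochondrial translation. It had 14 of 15 genes above 0 and a median of 0.085, beside 39.9% of all tested probe sets and 48.6% of the brighter ones above 0. Taco1, an activator of translation of a cytochrome oxidase subunit, read 8.56, 8.71 and 8.74 in control and 8.87, 8.81 and 8.89 in Sirt1 inactive cells. The groups did not overlap, at a difference of 0.19 (SE 0.07, limma unadjusted p = 0.03). In this list 6.67% of the genes were higher without overlap, beside 2.62% of all tested probe sets and 3.64% of the brighter ones. Guf1 (0.21), Mtrf1l (0.15) and Gfm2 (0.11) were higher in 3 of 3 pairs with overlapping groups.

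The mitochondrial aminoacyl-tRNA synthetases, which load amino acids onto transfer RNA, had 15 of 19 genes above 0, a median of 0.081 and 6 genes (31.6%) without overlap, all higher, beside 2.62% of all tested probe sets and 3.64% of the brighter ones. Wars2, the enzyme for tryptophan, read 9.17, 9.02 and 8.97 in control and 9.31, 9.33 and 9.34 in Sirt1 inactive cells. Its Sirt1 inactive arrays lay within 0.03 of each other, above every control array, at a difference of 0.28 (SE 0.07, limma unadjusted p = 0.0046, adjusted p = 0.959). Nars2 (0.22), Pars2 (0.21) and Gatb (0.20), a subunit of the enzyme that makes glutaminyl-tRNA, also had an unadjusted limma p under 0.05 and groups without overlap. These 4 genes of 19 (21.1%) stand beside 0.984% of all tested probe sets and 1.21% of the brighter ones that were higher at that p.

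Transcription and copying of mitochondrial DNA had 6 of 8 genes above 0 and a median of 0.095. Tfb2m, the factor that lets the mitochondrial RNA polymerase open its promoters, read 10.22, 10.49 and 10.26 in control and 10.70, 10.63 and 10.69 in Sirt1 inactive cells. With no overlap, its difference of 0.35 (SE 0.08, limma unadjusted p = 0.0038, adjusted p = 0.959) exceeded that of every member. In this list 12.5% of the genes were higher without overlap, beside 2.62% of all tested probe sets and 3.64% of the brighter ones. The polymerase gene Polrmt had a difference of -0.07, Tefm of 0.10 and Polg2 of 0.16. Tfam, which packs mitochondrial DNA, differed by 0.11 (SE 0.10).

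**Figure D4:**
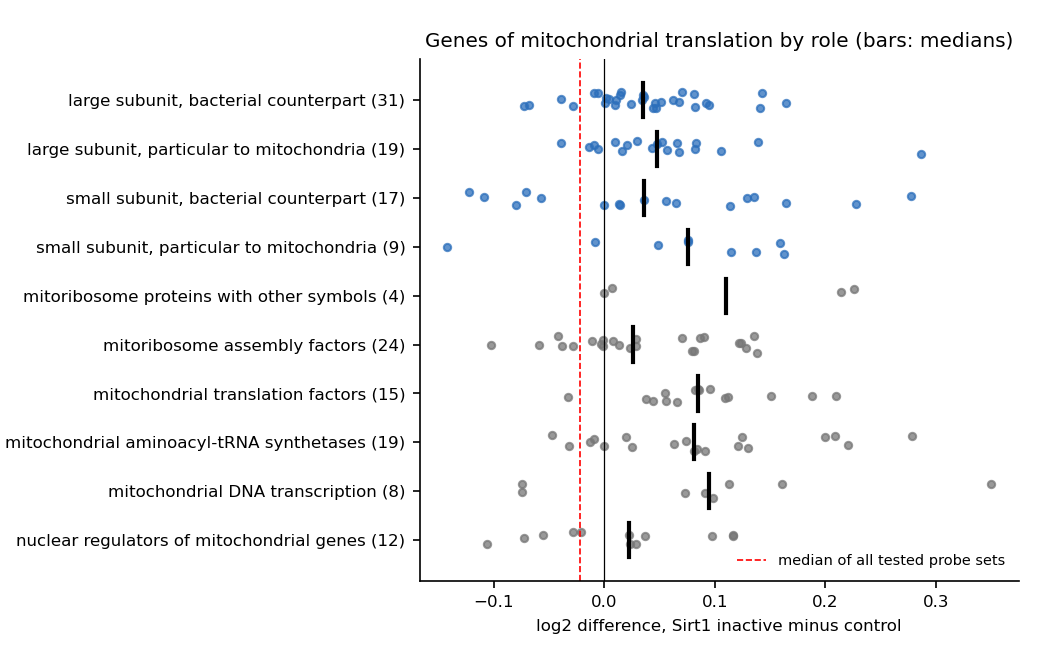
Log2 differences, Sirt1 inactive minus control, with 1 point per gene, of the 4 groups of mitochondrial ribosomal protein genes (blue) and 6 lists of related genes (grey), with black bars at medians, the number of genes in brackets and a dashed line at the median of all tested probe sets, -0.022. The medians of all 10 lie above 0, from 0.022 for the nuclear regulators to 0.110 for the ribosomal proteins with other symbols.

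For comparison, chosen after values were seen, the cytosolic ribosomal protein genes had 28 of 59 above 0 (47.5%) and a median of -0.003. The nuclear respiratory chain genes had 58 of 80 above 0 (72.5%) and a median of 0.036, with 28 of 80 higher in 3 of 3 pairs. Pair by pair, 71.2%, 48.8% and 82.5% of the respiratory chain genes were higher in pairs 1 to 3, with medians of 0.041, -0.005 and 0.066. For the mitochondrial ribosomal protein genes, pair 2 had the highest of the 3 shares, and for the respiratory chain it had the lowest. The difference between the lists was not tested.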

How the data were processed

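Total RNA of 6 samples was hybridised to 1-colour Affymetrix whole-transcript arrays, 1 per sample, and samples were grouped by the genotype in their labels. The deposited values are log2 values. Per the submitters' processing notes the authors used RMA. Its version and the annotation's genome build: not given in the sources used here. RMA equalises intensity distributions between arrays and compresses differences of dim probe sets, so fold changes can understate changes in RNA. The table has 34760 probe sets and 0 columns of other samples; 21640 are paired with 1 gene, 1321 with several and 11799 with none. All 77 members matched RefSeq's table by Entrez identifier.

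The 22961 probe sets with a gene were fitted over all 6 arrays with genotype as the term (limma 3.58.1, R 4.3.3), two-sided, with Benjamini-Hochberg adjustment at 0.05. Arrays have no read depth, and their number limits the precision: the median SE was 0.08, and the 95% interval was the difference plus or minus 0.19 in the median. In 20 simulations with 22961 probe sets, 200 of them changed, the fit recovered 1.5% of changes of 0.25, 46% of changes of 0.5, 87.8% of changes of 1 and 97.1% of changes of 2 on the log2 scale. The sizes were mixed in equal numbers with independent noise per array, and 5.85 unchanged probe sets were called on average. Large changes in such a mix ease the adjusted threshold for small ones, and in the data 0 probe sets were called. These shares therefore do not give the power of this comparison.

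Members, gene lists and tests were chosen with earlier results of these data known. Named are Sirt1, the 10 members per direction with the smallest unadjusted p, members whose groups do not overlap, the 4 with the largest SD, members whose probe sets differ in sign and up to 4 genes per pathway list with the smallest p; others (Mrpl10, Mrpl12, Mrpl17, Mrpl43, Mrpl45, Mrps36, Nrf1, Gabpa, Yy1, Ppargc1a, Tfam, Slc5a3, Clpp, Prom1, Pax6, Hes5, Fabp7, Vim) were named for their role, sequence or position.

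Replicate numbers come from the titles. Deviations from the group means correlated between same-numbered arrays (0.47, 0.36 and 0.27 for numbers 1 to 3), so the numbers were taken to pair the samples. Arrays of unlike number gave -0.32 to -0.02. Deviations sum to 0 within a group, so these negative values follow in part from the positive ones and add no support. Alternatives were 2 array scalings, the replicate block, an intensity trend with a robust prior, array weights, a filter on dim probe sets, all probe sets, averaging each gene's probe sets and leaving out each array.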

Additional observations from a re-analysis of the deposited data

How the results depend on the processing

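With limma, 0 members were called under each of the 14 alternatives listed at the outset and under 1 added after seeing the data. The median of the members and of both subunits stayed above 0 in all of them. With array medians subtracted, which shifts the median of all probe sets by 0.025, the members' median was 0.070, that of the large subunit 0.064, and 66 of 77 members lay above 0 beside 51.1% of all tested probe sets. The count of probe sets at an unadjusted p under 0.05 was 830, with 2 members among them, in the fit as reported. The replicate block, for which the numbers were taken to pair the samples, gave 1741 probe sets (7.58%) and 3 members and changed no call (smallest adjusted p 0.51). Array weights gave 4 members, testing unannotated probe sets too gave 1376 probe sets and 1 member, and the filter on dim probe sets 312 probe sets. The added alternative, the block with both arrays of number 3 left out, called 19 probe sets (0.0827%), of which 0 were members, and gave 1972 probe sets and 6 members at an unadjusted p under 0.05.

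Leaving out each array in turn gave 456 (without Sirt1 inactive replicate 2) to 1453 (without control replicate 1) probe sets and 1 to 3 members at an unadjusted p under 0.05, 53 to 64 members above 0, and medians of 0.029 to 0.055 for the members, 0.023 to 0.054 for the large and 0.020 to 0.098 for the small subunit. The Sirt1 difference ranged from -0.47 to -0.36.

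Of 58 named genes besides Sirt1, 47 kept their direction throughout. With array weights, the sign turned for Mrpl58 (0.034), Mrps21 (0.062), Mrps24 (0.01), Mrps33 (-0.046) and Gadd45gip1 (0.066). When each gene's probe sets were averaged it turned for Mrpl23 (-0.03) and Mrps33 (-0.04). The Gadd45gip1 difference was 0.025 with medians subtracted and 0.0031 with renewed quantile normalization. With the block and both arrays of number 3 left out, the Mrps6 difference was -0.00032, that of Mrps26 0.049, the Dap3 difference -0.0024 and that of Gadd45gip1 0.046. Leaving out each array gave ranges of -0.064 to 0.039 for Gadd45gip1, -0.089 to 0.019 for Mrpl58, -0.0048 to 0.024 for Dap3, -0.0046 to 0.087 for Mrpl23, -0.024 to 0.23 for Mrpl47, -0.22 to 0.038 for Mrps21, -0.13 to 0.01 for Mrps24, -0.014 to 0.31 for Mrps28 and -0.023 to 0.17 for Mrps33. The cause was not tested. Arrays limit these results by their number. The self-test recovered few changes of 0.25, but with larger changes mixed in it does not give the power of this comparison.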

Other observations

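The list for the mitochondrial unfolded protein response, which holds chaperone and protease genes and the stress transcription factors Atf4, Atf5 and Ddit3, had 7 of 11 genes above 0 and a median difference of 0.053, and 0 passed the limma test. Hspd1, the chaperonin that folds imported proteins, read 11.50, 11.60 and 11.52 in control and 11.66, 11.79 and 11.60 in Sirt1 inactive cells, a difference of 0.14 (SE 0.07). Control replicate 2 and Sirt1 inactive replicate 3 were equal to 2 decimals, and the groups otherwise did not overlap. Its partner Hspe1 read 11.33, 11.23 and 10.99 in control and 11.50, 11.47 and 11.28 in Sirt1 inactive cells, a difference of 0.24 (SE 0.10) with overlapping groups. Dnaja3 had a difference of 0.15 (SE 0.07) without overlap and the protease subunit Clpx of 0.15 (SE 0.11) with overlap. Genes without overlap, all higher, were 18.2% of this list, beside 2.62% of all tested probe sets and 3.64% of the brighter ones. The transcription factors lay on the other side of 0 with overlapping groups: Atf5 at -0.18 (SE 0.15), Atf4 at -0.12 (SE 0.09) and Ddit3 at -0.17 (SE 0.13), and each had its highest value in control replicate 3. They are named here outside the rule of selection, after their values were seen. The remaining gene below 0 was the protease subunit Clpp (-0.01, SE 0.06).

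Of the RNAs encoded by mitochondrial DNA, 2 of 15 listed had a single-gene probe set. COX2, a subunit of cytochrome oxidase, had a difference of 0.12 (SE 0.10), and ND3, a subunit of complex I, of 0.08 (SE 0.07). Both were higher in 3 of 3 pairs with overlapping groups.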
